A study of Mus musculus with 24 samples.

Results

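The 9 genes described here encode enzymes that move amino groups between amino acids and 2-oxo acids, or that act just beside that step in muscle: the alanine aminotransferases Gpt and Gpt2, the aspartate aminotransferases Got1 and Got2, glutamate dehydrogenase Glud1, the branched-chain aminotransferase Bcat2, the subunits Bckdha and Bckdhb of the branched-chain 2-oxo acid dehydrogenase, and asparagine synthetase Asns. They were chosen by gene symbol, as 9 of the 19937 genes with a probe set carrying exactly 1 symbol. Each had 1 such probe set. All 9 had a mean above the filter on dim probe sets in each of the 4 groups, so all 9 are among the 14499 genes tested, and none was included only through a group where it was high. The 9 genes and the gene lists used below were chosen with earlier results of these data known. Shares over all genes are set beside their counts as a description and are no test.

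RNA of the plantaris, a hindlimb muscle that extends the ankle, was measured on 24 whole-transcript arrays from mice aged 3 months, 6 per group. The groups were untreated wildtype, overloaded wildtype, untreated Mstn-/- and overloaded Mstn-/- mice. Mstn-/- mice lack working myostatin, a secreted protein that restrains muscle growth. Overload was produced in both legs by cutting out the soleus and most of the gastrocnemius, which leaves the plantaris to carry their load, and control mice had no operation, so the surgery and the load cannot be told apart. The muscle of 1 leg was used, the labels call the arrays biological replicates, while the sources used here give no duration of overload, sex or strain. Values are log2 of the deposited intensity. A gene is called when limma's Benjamini-Hochberg adjusted p over all 14499 genes is below 0.05, and a fold is the ratio of geometric mean intensities.

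Branched-chain amino acids (leucine, isoleucine and valine) are broken down mainly outside the liver, and skeletal muscle holds much of the body's capacity for the initial step. In muscle mitochondria Bcat2 passes their amino group to 2-oxoglutarate, which gives glutamate and branched-chain 2-oxo acids, and the dehydrogenase built on Bckdha and Bckdhb then commits the carbon skeletons to oxidation. The alanine aminotransferases pass the amino group from glutamate to pyruvate, and the alanine formed can leave the muscle for the liver. The aspartate aminotransferases join glutamate and aspartate to the malate-aspartate shuttle, which carries reducing equivalents into mitochondria, and Glud1 releases the amino group of glutamate as ammonium.

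Promoter sequences were taken from RefSeq (assembly GRCm38.p6) for 8 of the 9 genes, 10 start sites in all. Gpt had no entry. The 250 bases before the start are printed for 4 genes: Asns, which rose under overload, Gpt2 and Bckdhb, which fell most in wildtype muscle, and Got1, which shares a motif with Asns. Capitals mark matches, on either strand, to TGATGNAA (the core of the C/EBP-ATF element through which ATF4 acts), AAGGTCA (a binding element of oestrogen-related receptors) and GGGCGG (a GC box, written CCGCCC on the other strand).
Asns (chr6:7693210-7693459, minus strand): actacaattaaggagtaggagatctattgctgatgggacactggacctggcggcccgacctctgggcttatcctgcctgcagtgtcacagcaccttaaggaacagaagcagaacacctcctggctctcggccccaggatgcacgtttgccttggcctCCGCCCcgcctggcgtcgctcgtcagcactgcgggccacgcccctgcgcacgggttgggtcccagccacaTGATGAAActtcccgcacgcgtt
Got1 (chr19:43524606-43524855, minus strand): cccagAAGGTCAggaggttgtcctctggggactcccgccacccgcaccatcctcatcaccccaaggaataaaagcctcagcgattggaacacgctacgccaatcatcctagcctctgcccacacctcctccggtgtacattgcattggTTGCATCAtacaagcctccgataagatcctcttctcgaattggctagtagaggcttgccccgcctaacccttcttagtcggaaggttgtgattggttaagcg
Gpt2 (chr8:85492326-85492575, plus strand): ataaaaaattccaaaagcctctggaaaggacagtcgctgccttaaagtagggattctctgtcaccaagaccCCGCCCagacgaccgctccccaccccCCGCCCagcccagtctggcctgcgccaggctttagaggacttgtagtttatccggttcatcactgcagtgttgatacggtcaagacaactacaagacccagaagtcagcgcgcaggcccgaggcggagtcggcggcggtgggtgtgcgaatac
Bckdhb (first start listed, chr9:83924887-83925136, plus strand): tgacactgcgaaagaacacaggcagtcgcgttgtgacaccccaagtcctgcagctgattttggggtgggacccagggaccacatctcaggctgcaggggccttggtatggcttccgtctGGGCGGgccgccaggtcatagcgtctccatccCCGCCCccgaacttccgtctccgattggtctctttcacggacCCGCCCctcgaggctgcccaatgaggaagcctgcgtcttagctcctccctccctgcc
The Asns window held TGATGNAA once, from 23 to 16 bases before the start. The Got1 window held it once too, on the opposite strand and from 102 to 95 bases before the start, and AAGGTCA from 245 to 239 bases before it. TGATGNAA occurred in 3.45% of the 32851 promoter windows of the same length, AAGGTCA in 4.08% and GGGCGG in 32.7%. GC boxes were found at Gpt2, Glud1, Bckdhb (first start) and Asns. CACGTG (an E-box), present in 6.02% of windows, and AGAACA followed by NNN and its own reverse complement (a palindromic glucocorticoid response element), present in 0.00913%, were in none of the 10 windows, which says only that these letters are not there.

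Facts of the arrays that touch the results come first. Mstn had a mean log2 intensity of 10.25 ± 0.11 (SD, n = 6) on the untreated wildtype arrays and 8.93 ± 0.31 on the untreated Mstn-/- arrays, which did not overlap. In the overloaded groups Mstn was at 8.40 ± 0.19 and 8.25 ± 0.30, which overlapped, so only the labels of the untreated groups are checked by it. The sources used here do not place its probe set inside or outside the deletion. The 18 fibre structure genes used as a tissue check were all above the filter, with an array mean between 12.47 and 13.14. Array medians lay between 139 and 147, and the number of arrays limits the precision: a group difference had a median standard error of 0.067 (log2) over all tested genes. The array of overloaded wildtype replicate 3 stood apart. Its mean correlation with its own group was 0.978 against 0.984 to 0.989 for the other 5, it was the lowest array of its group for 8 of the 9 genes, and it had the lowest mean over the fibre structure genes (12.47) and over 25 mitochondrial energy genes (10.86). Both values are given where leaving it out changed a call of the 9 genes or moved a printed count by over 1.5 times.

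Markers of other cell types moved with overload. All 16 macrophage markers rose in both genotypes, and their mean log2 level per array went from a range of 7.51 to 7.91 to a range of 9.62 to 10.24 in wildtype and from 7.90 to 8.18 to a range of 9.11 to 10.04 in Mstn-/- muscle. Of 10 fibroblast and progenitor markers 10 rose in wildtype, from a range of 9.84 to 10.37 to a range of 11.84 to 12.11, and 9 in Mstn-/- muscle, from 9.97 to 10.40 to a range of 11.25 to 11.61. Of 10 endothelial markers 8 rose and 1 fell in each genotype, and of 6 adipocyte markers 2 fell in wildtype (1 without overloaded wildtype replicate 3) and 1 rose in Mstn-/- muscle. At most 1 macrophage and 1 adipocyte marker had a mean below the filter in any group, and no marker was listed at 0. Of the 18 fibre structure genes 13 fell and 2 rose in wildtype, and 12 fell and 1 rose in Mstn-/- muscle. Their log2 differences ran from -1.08 to 0.29 in wildtype and from -0.51 to 0.51 in Mstn-/- muscle, so these genes did not move as a block. The cause of that spread was not tested. In bulk muscle, fewer fibres in the sample and less RNA per fibre cannot be told apart. Values relative to the fibre structure genes of the same array are given after the comparisons.

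Transcripts of nearly all of these enzymes were lower in overloaded muscle. In wildtype muscle 8 of the 9 genes fell and Asns rose, so all 9 were called, where 65.9% of all tested genes were called (35.6% lower and 30.3% higher). The arrays of untreated and overloaded wildtype did not overlap for 8 of the 9, against 43% of all genes, and the gene that overlapped was Glud1. In Mstn-/- muscle 7 fell, Asns rose and Got2 was not called, against 60.6% of all genes called (33.5% lower and 27.1% higher). A shift of all arrays to a common median gave 3295 higher and 6767 lower genes in Mstn-/- muscle, in place of 3932 and 4857, and left the calls of the 9 genes there as they were. There 7 of the 9 did not overlap, against 39.9% of all genes, and Got2 and Asns did. The median log2 difference over the 9 genes was -0.75 in wildtype and -0.40 in Mstn-/- muscle, beside -0.06 over all tested genes in each genotype.

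Loss of myostatin touched fewer of them. In untreated muscle Gpt2 and Bcat2 were higher in Mstn-/- and Got1 was lower, 3 of 9 called against 21.3% of all genes (11.1% higher and 10.2% lower). A common median gave 1859 higher and 1100 lower genes, in place of 1616 and 1475, and Got1 was then not called (limma adjusted p = 0.063). The untreated genotypes did not overlap for 4 of the 9 (Gpt2, Bcat2, Got1 and Got2), against 12% of all genes. Under overload Gpt2, Bcat2, Bckdha and Bckdhb were higher in Mstn-/- and Glud1 was lower, 5 of 9 against 36.5% of all genes (17.5% higher and 19% lower), and for Gpt2, Bcat2 and Glud1 the arrays did not overlap, 3 of 9 against 15.5%. The overload response itself differed between the genotypes for Gpt2, Got1, Bckdha and Bckdhb, 4 of 9 against 17.4% of all genes (8.92% with the higher and 8.44% with the lower response in Mstn-/-), in each case with the smaller fall in Mstn-/- muscle. These comparisons share arrays (each group enters more than 1 of them), so their values are given side by side and are not independent of each other.

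**Figure D1:**
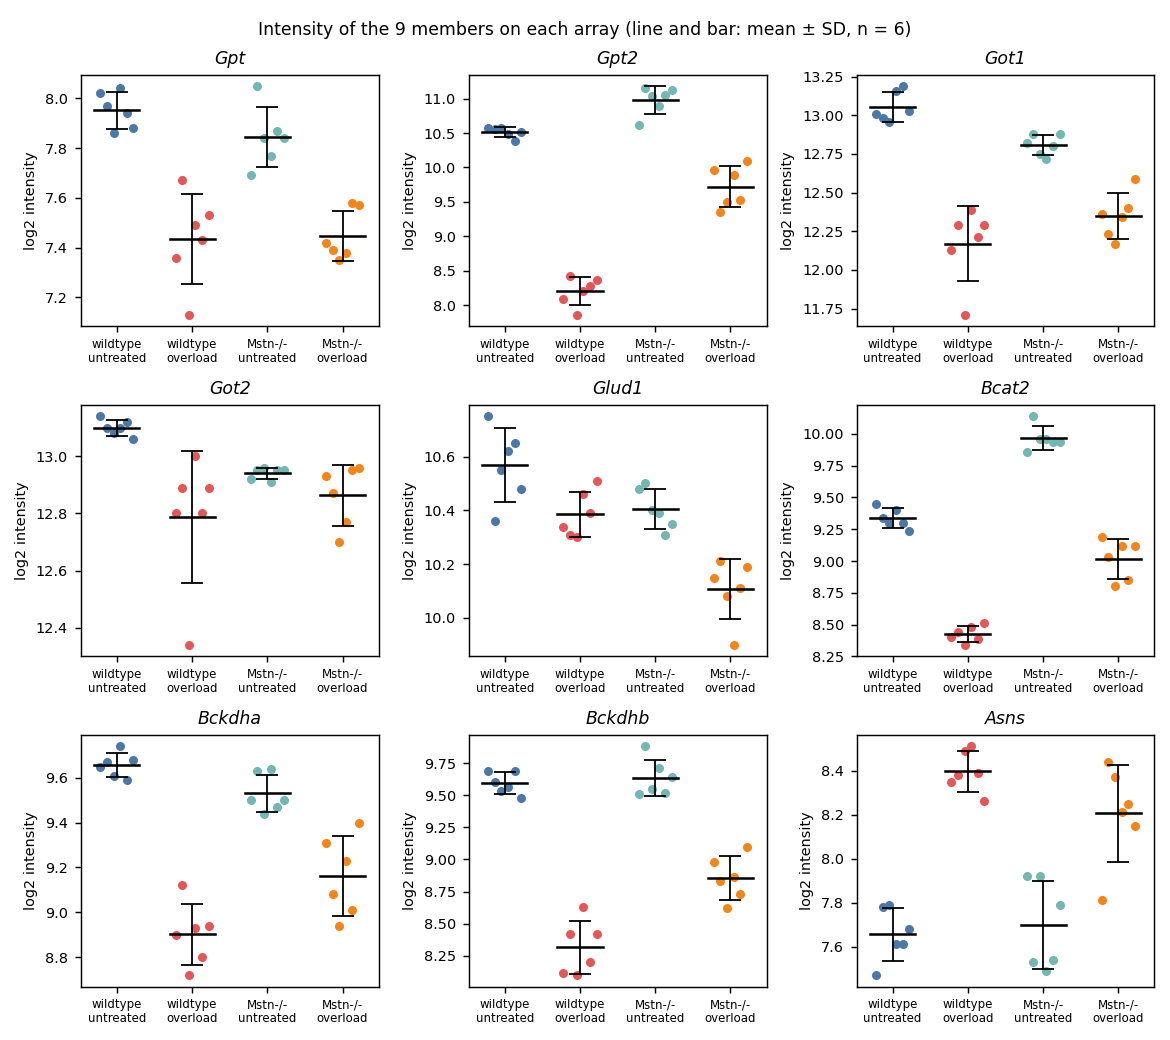
Log2 intensity of each of the 9 genes on each of the 24 arrays, by group (points: arrays; line and bar: mean and SD of 6 arrays; the vertical scale differs between panels and does not start at 0). Gpt2 runs from 7.86 on an overloaded wildtype array to 11.16 on an untreated Mstn-/- array, and Asns is the gene whose overloaded means lie above the untreated ones.

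Gpt2, the mitochondrial alanine aminotransferase, changed most. On the untreated wildtype arrays its log2 intensity ran from 10.39 to 10.58 with a median of 10.54, and on the overloaded wildtype arrays from 7.86 to 8.42 with a median of 8.25. On the untreated Mstn-/- arrays it ran from 10.62 to 11.16 with a median of 11.05, and on the overloaded Mstn-/- arrays from 9.36 to 10.10 with a median of 9.70. No pair of groups overlapped, where 47.4% of all genes did not overlap between untreated Mstn-/- and overloaded wildtype and 37.6% did not between overloaded Mstn-/- and untreated wildtype. In order, untreated Mstn-/- muscle was highest, then untreated wildtype, overloaded Mstn-/- and, well apart from the rest, overloaded wildtype. Gpt2 fell 4.98-fold under overload in wildtype (log2 difference -2.32 ± 0.11, SE; limma adjusted p = 3.7e-15), which was number 8 among all tested genes ordered by the size of the fall. The fall in Mstn-/- muscle was 2.40-fold (-1.26 ± 0.11; limma adjusted p = 5.1e-10), number 37 in that order.

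The genotypes lay further apart under overload. Gpt2 was 1.38-fold higher in untreated Mstn-/- than in untreated wildtype muscle (limma adjusted p = 0.0040) and 2.86-fold higher in overloaded Mstn-/- than in overloaded wildtype muscle (limma adjusted p = 6.3e-10), number 8 among all genes ordered by how much higher they were. The difference between the responses was 1.05 ± 0.16 (log2, SE; 95% interval 0.73 to 1.38; limma adjusted p = 5.8e-05). Leaving out any 1 array kept that difference between 0.98 and 1.13.

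Gpt, the cytosolic alanine aminotransferase, had much smaller differences. It ran from 7.86 to 8.04 in untreated wildtype and from 7.13 to 7.67 in overloaded wildtype, with medians of 7.96 and 7.46. The Mstn-/- arrays ran from 7.69 to 8.05 untreated and from 7.35 to 7.58 overloaded, with medians of 7.84 and 7.40. Untreated and overloaded arrays did not overlap in either genotype. Gpt fell 1.43-fold in wildtype (limma adjusted p = 4e-07) and 1.32-fold in Mstn-/- muscle (limma adjusted p = 3e-05). The genotypes were not called different, with log2 differences of -0.11 ± 0.071 (SE) untreated and 0.01 ± 0.071 overloaded, and the difference in response had an interval of -0.08 to 0.33.

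Got1, the cytosolic aspartate aminotransferase, fell in both genotypes, and further in wildtype. Its log2 intensity ran from 12.96 to 13.19 in untreated wildtype (median 13.02) and from 11.71 to 12.39 in overloaded wildtype (median 12.25). Mstn-/- arrays ran from 12.72 to 12.88 untreated (median 12.81) and from 12.17 to 12.59 overloaded (median 12.35). The untreated groups did not overlap, with Mstn-/- below wildtype, while the overloaded groups did. The fall was 1.85-fold in wildtype (limma adjusted p = 7.2e-10) and 1.37-fold in Mstn-/- muscle (limma adjusted p = 4.3e-05), a difference in response of 0.43 ± 0.12 (log2, SE; 95% interval 0.18 to 0.67; limma adjusted p = 0.013). Without overloaded wildtype replicate 3 that difference was 0.34 and still called.

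In untreated muscle Got1 was 1.19-fold lower in Mstn-/- (log2 difference -0.25 ± 0.084, SE; limma adjusted p = 0.036). That call was lost on leaving out any 1 of untreated Mstn-/- replicates 1, 3, 4 and 5 or untreated wildtype replicates 4 and 5 (limma adjusted p from 0.050 to 0.081), while the difference stayed between -0.27 and -0.22. The overloaded difference of 0.18 ± 0.084 (limma adjusted p = 0.096) was called without overloaded wildtype replicate 4, at 0.22 (limma adjusted p = 0.038), and was 0.087 without overloaded wildtype replicate 3 (limma adjusted p = 0.32).

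Got2, the mitochondrial aspartate aminotransferase, also a fatty acid binding protein of the cell surface, had narrow untreated groups. It ran from 13.06 to 13.14 in untreated wildtype and from 12.91 to 12.96 in untreated Mstn-/- muscle, so the untreated genotypes did not overlap. Overloaded arrays spread more widely, from 12.34 to 13.00 in wildtype and from 12.70 to 12.96 in Mstn-/- muscle, and the lowest of them was overloaded wildtype replicate 3. Got2 fell 1.24-fold in wildtype (log2 difference -0.31 ± 0.073, SE; limma adjusted p = 5e-04), and by 0.22 on the log2 scale without that replicate. The difference in Mstn-/- muscle was -0.08 ± 0.073 (limma adjusted p = 0.37).

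The difference in response of Got2, 0.24 ± 0.10 (log2, SE; 95% interval 0.02 to 0.45; limma adjusted p = 0.12), was not called with all arrays. It passed the threshold, at 0.28, without overloaded wildtype replicate 4, and was 0.15 without overloaded wildtype replicate 3 (limma adjusted p = 0.16). The untreated genotype difference of -0.16 (limma adjusted p = 0.12) was not called with the spread pooled over the 4 groups. It was called without overloaded wildtype replicate 3 (limma adjusted p = 0.014) and in a fit of the untreated groups alone (limma adjusted p = 0.0057).

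Glud1, glutamate dehydrogenase of the mitochondrial matrix, had the smallest fall that was called in wildtype. It ran from 10.36 to 10.75 in untreated wildtype and from 10.30 to 10.51 in overloaded wildtype, which overlap, and fell 1.13-fold (limma adjusted p = 0.011). In Mstn-/- muscle it ran from 10.31 to 10.50 untreated and from 9.90 to 10.21 overloaded, which do not overlap, and fell 1.23-fold (limma adjusted p = 0.00016). Overloaded Mstn-/- arrays were also all below the overloaded wildtype arrays, by 1.21-fold (limma adjusted p = 8e-04). The difference in response was -0.12 ± 0.087 (log2, SE; interval -0.30 to 0.06) and was not called. The untreated genotype difference of -0.16 ± 0.061 (limma adjusted p = 0.061) was called without untreated wildtype replicate 2 (limma adjusted p = 0.017) or without overloaded Mstn-/- replicate 4 (limma adjusted p = 0.044). With all arrays it was called after a further quantile normalization (limma adjusted p = 0.021), with a stricter filter (limma adjusted p = 0.049) and with array weights (limma adjusted p = 0.021).

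Bcat2, the mitochondrial branched-chain aminotransferase, separated all 4 groups and fell by a similar amount in both genotypes on the deposited scale. In wildtype its log2 intensity ran from 9.24 to 9.45 untreated (median 9.32) and from 8.34 to 8.51 overloaded (median 8.42). Mstn-/- arrays ran from 9.86 to 10.14 untreated (median 9.95) and from 8.80 to 9.19 overloaded (median 9.07). The order was untreated Mstn-/-, untreated wildtype, overloaded Mstn-/- and overloaded wildtype, with no overlap between neighbours. The fall was 1.88-fold in wildtype (limma adjusted p = 1.4e-12) and 1.93-fold in Mstn-/- muscle (limma adjusted p = 2.1e-12).

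The genotype difference of Bcat2 was 1.54-fold without overload (limma adjusted p = 4e-08) and 1.51-fold with it (limma adjusted p = 6.7e-08), higher in Mstn-/- each time. The difference in response was -0.04 ± 0.087 (log2, SE; limma adjusted p = 0.84). Its 95% interval, -0.21 to 0.14, leaves room for a modest difference in either direction but not for one of the size of Gpt2.

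Bckdha and Bckdhb form the E1 component of the dehydrogenase, which removes the carboxyl carbon of the branched-chain 2-oxo acids. Bckdhb ran from 9.48 to 9.69 in untreated wildtype (median 9.58) and from 8.10 to 8.63 in overloaded wildtype (median 8.31). In Mstn-/- muscle it ran from 9.51 to 9.88 untreated (median 9.60) and from 8.62 to 9.10 overloaded (median 8.84). The untreated groups overlapped broadly, and the overloaded groups overlapped only where the highest wildtype array met the lowest Mstn-/- array. Bckdhb fell 2.43-fold in wildtype (limma adjusted p = 1.6e-12) and 1.72-fold in Mstn-/- muscle (limma adjusted p = 2.3e-08), a difference in response of 0.49 ± 0.12 (log2, SE; 95% interval 0.24 to 0.75; limma adjusted p = 0.0062). Under overload it was 1.45-fold higher in Mstn-/- (limma adjusted p = 2.8e-05), while in untreated muscle the genotypes differed by 0.04 ± 0.087 (log2, SE).

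Bckdha also fell in both genotypes, by less. It ran from 9.59 to 9.74 in untreated wildtype (median 9.66) and from 8.72 to 9.12 in overloaded wildtype (median 8.92). On Mstn-/- arrays it ran from 9.44 to 9.64 untreated (median 9.50) and from 8.94 to 9.40 overloaded (median 9.15), and the genotypes overlapped both untreated and overloaded. The fall was 1.68-fold in wildtype (limma adjusted p = 5.7e-10) and 1.29-fold in Mstn-/- muscle (limma adjusted p = 7.1e-05), with a difference in response of 0.38 ± 0.099 (log2, SE; 95% interval 0.18 to 0.59; limma adjusted p = 0.0083). On the deposited scale overloaded Mstn-/- muscle was 1.20-fold above overloaded wildtype (limma adjusted p = 0.0050), while the untreated genotypes differed by -0.12 ± 0.070 (log2, SE; limma adjusted p = 0.23).

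Asns, which makes asparagine from aspartate with glutamine as the amino donor, was the gene that rose. It ran from 7.47 to 7.79 in untreated wildtype (median 7.64) and from 8.26 to 8.51 in overloaded wildtype (median 8.38). On Mstn-/- arrays it ran from 7.49 to 7.92 untreated (median 7.66) and from 7.81 to 8.44 overloaded (median 8.23). The wildtype groups did not overlap, and in Mstn-/- muscle 1 overloaded array, at 7.81, lay within the untreated range. The rise was 1.67-fold in wildtype (limma adjusted p = 7.5e-08) and 1.42-fold in Mstn-/- muscle (limma adjusted p = 3.5e-05). On the deposited scale the genotypes were not called different in either state, and the difference in response was -0.24 ± 0.13 (log2, SE; interval -0.50 to 0.03; limma adjusted p = 0.23). Under overload the genotype difference of -0.19 (limma adjusted p = 0.10) was called at -0.24 without overloaded Mstn-/- replicate 2 (limma adjusted p = 0.046), and was -0.11 without overloaded Mstn-/- replicate 1 (limma adjusted p = 0.31). Without the latter array the difference in response was -0.16 (limma adjusted p = 0.41).

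**Figure D2:**
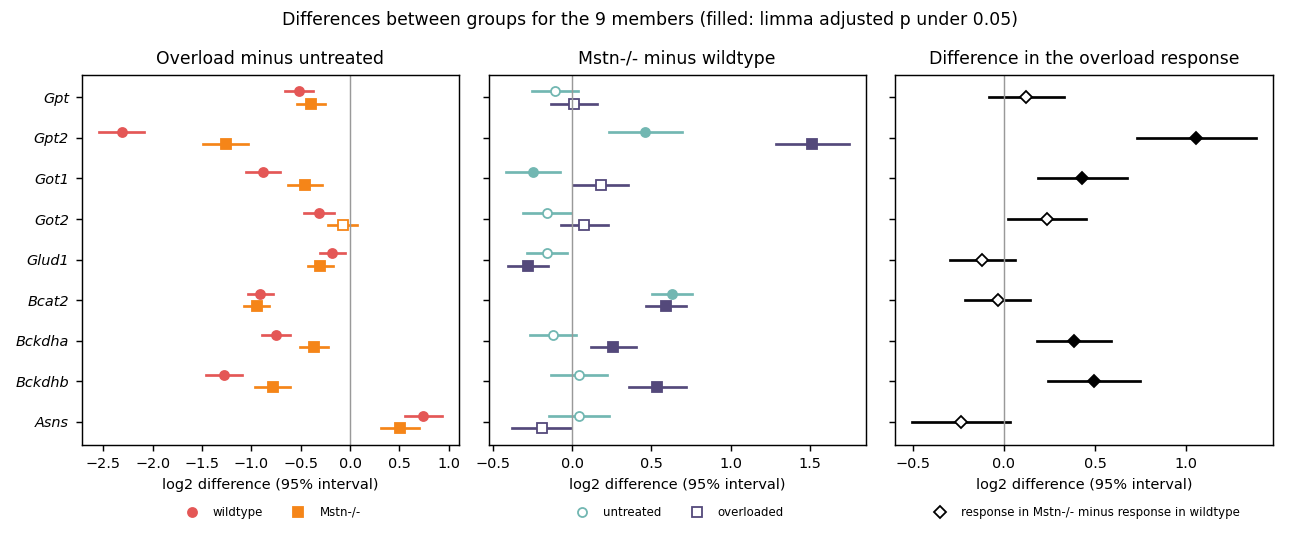
Log2 differences with 95% intervals for the 9 genes: overload minus untreated in each genotype (left), Mstn-/- minus wildtype in each state (middle), and the response in Mstn-/- minus the response in wildtype (right). Filled symbols have a limma adjusted p below 0.05. The difference in response is furthest from 0 for Gpt2 (1.05) and nearest to 0 for Bcat2 (-0.04).

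The order of the 4 group levels differed from gene to gene. For Gpt2 and Bcat2 every neighbouring pair in the order was called different, with untreated Mstn-/- at the top. Some neighbours cross both genotype and state. Over all genes 63.9% were called between overloaded Mstn-/- and untreated wildtype and 66% between untreated Mstn-/- and overloaded wildtype. For Bckdhb the untreated genotypes could not be separated (gap 0.04 on the log2 scale), and overloaded Mstn-/- and overloaded wildtype followed in called steps of 0.74 and 0.54. Bckdha had untreated wildtype and untreated Mstn-/- first, not called different, then called steps of 0.37 to overloaded Mstn-/- and 0.26 to overloaded wildtype. For Got1 the steps from untreated wildtype to untreated Mstn-/- (0.25) and on to overloaded Mstn-/- (0.46) were called and the last one to overloaded wildtype (0.18) was not. Gpt and Asns each formed an untreated pair and an overloaded pair, with called steps of 0.40 and 0.51 between the pairs. For Glud1 the step down to overloaded Mstn-/- (0.28) was the one called between neighbours. For Got2 no neighbouring pair was called different.

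The rest of the branched-chain pathway was then examined as a list of 24 genes that begins with Bcat1 and the remaining parts of the dehydrogenase and runs through the propionyl-CoA and methylmalonyl-CoA steps and the use of acetoacetate, of which 23 were tested. In wildtype muscle 21 of the 23 fell under overload and 2 rose, with a median log2 difference of -0.93 beside -0.06 over all genes. In Mstn-/- muscle 20 fell and 1 rose, with a median of -0.50. Among all genes 35.6% fell in wildtype and 33.5% in Mstn-/- muscle. Aldh6a1, the methylmalonate semialdehyde dehydrogenase of valine breakdown, fell 2.84-fold in wildtype (limma adjusted p = 5.4e-13), and Acadsb, the short/branched-chain acyl-CoA dehydrogenase of isoleucine breakdown, fell 2.25-fold (limma adjusted p = 3.4e-13). In Mstn-/- muscle the named falls were Dbt, the E2 core of the dehydrogenase (1.97-fold; limma adjusted p = 5.4e-10), and Acadsb (1.79-fold; limma adjusted p = 3.2e-10).

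The 2 genes of that list that rose under overload encode aminotransferases. Bcat1, the cytosolic branched-chain aminotransferase, rose 1.71-fold in wildtype (limma adjusted p = 8.8e-09) and 1.44-fold in Mstn-/- muscle (limma adjusted p = 7e-06), the reverse of its mitochondrial counterpart Bcat2. Abat, the 4-aminobutyrate aminotransferase, rose 1.15-fold in wildtype (limma adjusted p = 0.024). Bcat1 and Abat were also the 2 genes of the list that were lower in overloaded Mstn-/- than in overloaded wildtype muscle, by 1.21-fold (limma adjusted p = 0.014) and 1.17-fold (limma adjusted p = 0.023).

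Between the genotypes, 19 of the 23 were higher in overloaded Mstn-/- than in overloaded wildtype muscle, with a median of 0.40, against 17.5% of all genes higher. The smallest adjusted p-values were those of Hsd17b10, an isoleucine pathway dehydrogenase (1.71-fold; limma adjusted p = 4.3e-09), and Mcee, methylmalonyl-CoA epimerase (1.54-fold; limma adjusted p = 1.1e-06). In untreated muscle 2 were higher, Hsd17b10 and Acad8, an isobutyryl-CoA dehydrogenase, and 3 were lower, among them Bckdk, the kinase that switches the dehydrogenase off (1.18-fold; limma adjusted p = 0.012). These counts are near the shares of all genes there, 11.1% higher and 10.2% lower. The overload response differed between the genotypes for 17 of the 23, each with the smaller fall in Mstn-/- muscle, led by Bckdk (difference 0.54 ± 0.093, log2, SE; limma adjusted p = 0.00024). Without overloaded wildtype replicate 3 that count was 11 of 23. With all arrays 17.4% of all genes differed in response. Over the same list the 6 arrays of overloaded wildtype had means from 8.89 to 9.40 and those of overloaded Mstn-/- muscle from 9.42 to 9.64, and the 8.89 was replicate 3.

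**Figure D3:**
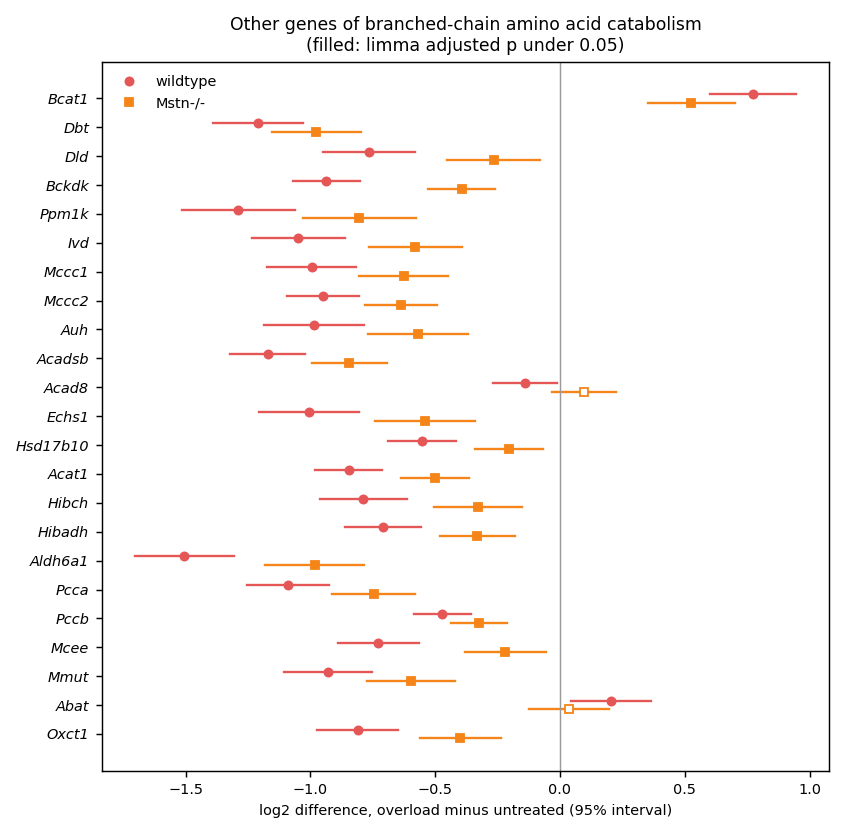
Log2 difference between overloaded and untreated muscle, with 95% intervals, for the 23 other genes of branched-chain amino acid catabolism that were tested, in wildtype (circles) and Mstn-/- (squares) muscle. Filled symbols have a limma adjusted p below 0.05. In wildtype 21 lie below 0, and Bcat1 and Abat lie above it.

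Genes that handle glutamate, glutamine and aspartate fell as well. Of 20 tested, 17 fell in wildtype (median -0.73) and 14 in Mstn-/- muscle (median -0.44), and by limma 0 of them rose in either, also at an unadjusted p below 0.05. Among all genes 35.6% and 33.5% fell. Glul, glutamine synthetase, which muscle uses to export nitrogen as glutamine, had a mean log2 intensity of 11.47 in untreated wildtype, 10.49 in overloaded wildtype, 12.49 in untreated Mstn-/- and 11.40 in overloaded Mstn-/- muscle. It was 2.03-fold higher in untreated Mstn-/- than wildtype muscle (limma adjusted p = 5.2e-10) and fell 2.13-fold under overload in Mstn-/- muscle (limma adjusted p = 6.8e-12). In wildtype the named falls were Asrgl1, an asparaginase (2.12-fold; limma adjusted p = 1.4e-11), and Aldh5a1, succinate semialdehyde dehydrogenase (1.65-fold; limma adjusted p = 4.4e-12).

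Between the genotypes that list was split by state. In untreated muscle 2 genes were higher in Mstn-/- (Glul and Oat, ornithine aminotransferase, 1.32-fold) and 5 were lower, or 3 and 8 without overloaded wildtype replicate 3. With all arrays 11.1% of all genes were higher and 10.2% lower in that comparison. Under overload 13 of 20 were higher in Mstn-/- and by limma 0 were lower, also at an unadjusted p below 0.05. There 17.5% of all genes were higher and 19% lower. The response differed for 10 of 20, or 8 without that replicate, where 17.4% of all genes differed in response with all arrays. It was led by Ampd1, the muscle AMP deaminase of the purine nucleotide cycle (0.82 ± 0.15, log2, SE; limma adjusted p = 4e-04), and Aspa, aspartoacylase (0.88 ± 0.17; limma adjusted p = 0.00077).

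Amino acid transporters moved both ways. Of 17 tested, 9 rose and 5 fell in wildtype, and 6 rose and 6 fell in Mstn-/- muscle. Among all genes 30.3% rose and 35.6% fell in wildtype, and 27.1% rose and 33.5% fell in Mstn-/- muscle. The falls in both genotypes are thus near the shares of all genes. Slc38a1, a sodium-coupled glutamine carrier, rose 3.00-fold in wildtype (limma adjusted p = 2.2e-11), and Slc7a5, the light chain of a leucine exchanger, rose 1.86-fold (limma adjusted p = 4.2e-09). Slc43a1, a carrier of branched-chain and other large neutral amino acids, fell 2.45-fold in wildtype (limma adjusted p = 1e-12) and 3.27-fold in Mstn-/- muscle (limma adjusted p = 3.5e-14), and in untreated muscle it was 1.92-fold higher in Mstn-/- (limma adjusted p = 1.1e-08).

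Asns is a known target of the transcription factor ATF4, which is made when amino acids are short or the endoplasmic reticulum is stressed. Other genes of that response moved both ways. Of 24 tested (a list that does not hold Asns), 7 rose and 10 fell in wildtype, shares near the 30.3% and 35.6% of all genes, with a median of -0.13. In Mstn-/- muscle 4 rose and 13 fell, with a median of -0.17, against 27.1% and 33.5% of all genes. Aldh18a1, which makes the proline precursor pyrroline-5-carboxylate, rose 2.62-fold in wildtype (limma adjusted p = 1.4e-14), while Chac1, a glutathione-degrading enzyme, fell 4.02-fold (limma adjusted p = 1e-10). Atf4 itself fell 1.33-fold in Mstn-/- muscle (limma adjusted p = 5.3e-08). In untreated muscle Sars, the cytosolic seryl-tRNA synthetase, was 1.44-fold higher in Mstn-/- (limma adjusted p = 2.2e-07).

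Regulators of amino acid breakdown in muscle were read from a list of 13 genes. In wildtype 9 fell and 2 rose, against 35.6% and 30.3% of all genes. In Mstn-/- muscle 8 fell and 3 rose, against 33.5% and 27.1%. Klf15, a transcription factor known to drive Bcat2 and alanine aminotransferase in muscle, had mean log2 intensities of 9.55 in untreated wildtype, 8.40 in overloaded wildtype, 9.80 in untreated Mstn-/- and 8.77 in overloaded Mstn-/- muscle. It fell 2.22-fold in wildtype (limma adjusted p = 1.7e-13) and 2.05-fold in Mstn-/- muscle (limma adjusted p = 3.3e-12). Fkbp5, a glucocorticoid-induced gene, was 3.03-fold higher in untreated Mstn-/- than wildtype muscle (limma adjusted p = 3.5e-11) and fell 2.49-fold under overload in Mstn-/- muscle (limma adjusted p = 5.2e-11).

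In that list the response in Mstn-/- muscle was called higher than in wildtype for 4 genes and lower for 3, against 8.92% and 8.44% of all genes. Ppara, a lipid-sensing receptor that drives fatty acid oxidation, fell 3.20-fold in wildtype (limma adjusted p = 1.6e-12), with a difference in response of 1.08 ± 0.16 (log2, SE; limma adjusted p = 5.3e-05). Ppargc1a, the coactivator that promotes mitochondrial gene expression, had a difference in response of 1.38 ± 0.17 (limma adjusted p = 4.4e-06) and was 2.23-fold higher in overloaded Mstn-/- than in overloaded wildtype muscle (limma adjusted p = 5.8e-08). Of the mitochondrial energy genes 25 of 25 fell in wildtype and 10 of 25 in Mstn-/- muscle, and the response differed for 22 of 25. Without overloaded wildtype replicate 3 these were 13 in Mstn-/- muscle and 20 for the response. With all arrays 35.6% of all genes fell in wildtype, 33.5% fell in Mstn-/- muscle and 17.4% differed in response. The 10 of 25 in Mstn-/- muscle is near the share of all genes there.

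Because fibre and mitochondrial transcripts moved with overload, the 9 genes were also set relative to each of these lists, by subtracting the mean log2 level of the list on the same array. Relative to the 18 fibre structure genes, a scale on which the median of all genes was 0.31 in the wildtype overload comparison and -0.26 in the difference in response, Gpt2 still fell (-1.95, log2; limma adjusted p = 1.6e-15), as did Bckdhb (-0.91), Bcat2 (-0.54), Got1 (-0.52), Bckdha (-0.38) and Gpt (-0.15). Glud1 turned to higher (0.19; limma adjusted p = 0.017), Got2 was at 0.06 (limma adjusted p = 0.32), and Asns was at 1.11. On this scale the difference in response was called for Gpt2 (0.81; limma adjusted p = 9.1e-05) but not for Got1 (0.19; limma adjusted p = 0.066), Bckdha (0.14; limma adjusted p = 0.17) or Bckdhb (0.26; limma adjusted p = 0.050). Bcat2 (-0.28; limma adjusted p = 0.018), Glud1 (-0.36; limma adjusted p = 0.0066) and Asns (-0.48; limma adjusted p = 0.020) became called, with the response in Mstn-/- muscle now the lower. Between overloaded genotypes the median of all genes was -0.25 on this scale. There Bckdha was no longer called (0.04; limma adjusted p = 0.60), and Asns became called as lower in Mstn-/- muscle (-0.42; limma adjusted p = 0.0028).

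Relative to the 25 mitochondrial energy genes, a scale added after the data were seen, the median of all genes was 0.60 in the wildtype comparison and -0.50 in the difference in response. Gpt2 still fell in wildtype (-1.66), as did Bckdhb (-0.62), Bcat2 (-0.25) and Got1 (-0.23), while the fall of Bckdha was no longer called (-0.09; limma adjusted p = 0.26). The difference in response of Gpt2 was 0.57 (limma adjusted p = 0.0017). For Got1, Bckdha and Bckdhb that difference was -0.06, -0.10 and 0.01, none of them called. The other 5 genes became called on this scale with the lower response in Mstn-/- muscle, at -0.36 for Gpt, -0.25 for Got2, -0.60 for Glud1, -0.52 for Bcat2 and -0.72 for Asns (limma adjusted p from 0.00022 to 0.0085). Between overloaded genotypes, where the median of all genes was -0.38 on this scale, Asns was called as lower in Mstn-/- muscle (-0.54; limma adjusted p = 0.00061). Calls were also lost for Got1 between untreated genotypes (-0.11; limma adjusted p = 0.27) and Glud1 under overload in Mstn-/- muscle (-0.13; limma adjusted p = 0.23). The part of cell composition in any of these differences was not tested beyond these scales.

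**Figure D4:**
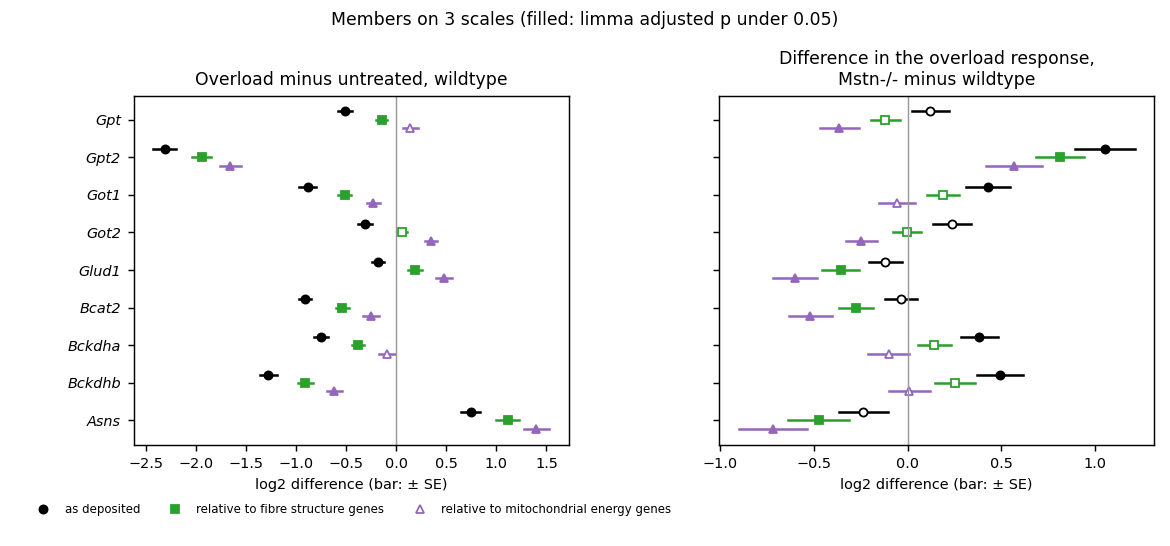
Log2 differences with standard errors for the 9 genes on 3 scales: as deposited (circles), relative to the mean of 18 fibre structure genes on the same array (squares), and relative to the mean of 25 mitochondrial energy genes (triangles). The left panel is overload minus untreated in wildtype, the right panel the response in Mstn-/- minus that in wildtype, and filled symbols have a limma adjusted p below 0.05. Gpt2 keeps its sign and its call on the 3 scales in both panels.

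The 9 genes were not one pattern. Likeness was measured as the root mean square difference between the gene-centred log2 values of a pair of genes over the 24 arrays, where 0 is identical; the arrays share their groups, so this describes the pattern and is no test. Among the 36 pairs of these genes the closest were Got1 with Bckdha (0.14), Gpt with Bckdha (0.15) and Gpt with Got2 (0.16), and the furthest was Gpt2 with Asns (1.39). Bcat2 was closest to Bckdhb (0.23). Gpt2 was at least 0.56 from each of the other 8, and its own spread was 1.07.

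Over all 14499 tested genes, the patterns most like Gpt2 were Adhfe1, a mitochondrial hydroxyacid-oxoacid transhydrogenase (0.21), Dhrs7c, a dehydrogenase of the sarcoplasmic reticulum (0.24), and Plcd4, a phospholipase C (0.26). In Adhfe1 the means were 11.22 in untreated wildtype, 8.81 in overloaded wildtype, 11.31 in untreated Mstn-/- and 10.19 in overloaded Mstn-/- muscle, again with overloaded wildtype well below the rest. Bckdhb was most like Dbt (0.11), its partner in the same enzyme complex, then Acadsb (0.12) and Epm2a, the glycogen phosphatase laforin (0.12). Bcat2 was most like Gucd1 (0.10), Gm7265 (0.15) and Nt5dc3 (0.15).

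For the remaining genes the closest patterns were as follows. Got1 was nearest to Crat, carnitine acetyltransferase (0.08), Adsl, adenylosuccinate lyase (0.09), and Cacna1s, the calcium channel of the fibre's transverse tubules (0.09). Got2 was nearest to Dlst, the E2 component of oxoglutarate dehydrogenase, Mybpc1, a myosin-binding protein, and Cs, citrate synthase, each at 0.07. Gpt was nearest to Fastk (0.07), Smpd1, acid sphingomyelinase (0.08), and the mitochondrial ribosomal gene Mrps15 (0.08). Bckdha was nearest to Phpt1 (0.09), Tmem147 (0.09) and Macrod1 (0.10), and Glud1 to the RNA helicase gene Ddx46 (0.08), the kinase gene Map3k20 (0.09) and Ctdsp1 (0.09). Asns was nearest to Pttg1ip (0.11), the cell cycle kinase gene Cdk2 (0.12) and Ywhab, a 14-3-3 protein gene (0.13), which also had higher means in the overloaded groups.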

How the data were processed

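RNA of 24 plantaris samples was hybridised to Affymetrix whole-transcript arrays. The authors deposited 1 intensity per probe set and array, made with RMA per the submitters' processing notes, with no version, and a genome build of the array annotation is not given in the sources. The deposited intensity is linear (4.72 to 25588.9), so log2 was taken, as planned for linear values, without a pseudocount. Of 34760 probe sets, 21640 carry exactly 1 symbol, 1321 several and 11799 none. Only the first were used, with names updated through RefSeq GRCm38.p6 (21553 matched, 87 kept the older name). A gene with several probe sets was represented by the one highest on average. A gene was tested where a group mean exceeded the 30th percentile of probe-set means (intensity 98.9).

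limma 3.58.1 in R 4.3.3 was fitted with 1 mean per group over all 24 arrays (20 residual degrees of freedom), with eBayes, and p-values were adjusted by Benjamini-Hochberg over all tested genes of a comparison. Named genes are the 9 genes, Mstn, per list and comparison up to 4 genes with the smallest adjusted p (2 higher and 2 lower), and per member the 3 genes most like it. The 9 genes and the lists were chosen with earlier results of these data known. Listed genes without a single-symbol probe set or under the filter are not analysed here.

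On simulated data (14499 genes, 200 changed, 5 runs, wildtype overload comparison) the fit recovered 25.2% of genes changed by 0.2 (log2), 66.4% of those changed by 0.3, 94% by 0.5 and 98.8% by 1, and 4.56% of its calls were false. In the data 65.9% of genes were called in that comparison, far more than were changed in the simulation. The adjustment is then less strict, so the simulated recoveries do not carry over to it. Replicate numbers are shared by the groups but no label says that they pair animals. No pair of arrays shared more than 0.0201% of its values. The alternatives tried were a further quantile normalization, a shift of all probe sets to a common array median, no filter and a stricter one, the mean of a gene's probe sets, trended and robust eBayes, array weights, the groups of the comparison alone, the replicate block, values relative to fibre structure genes or (added later) mitochondrial energy genes, and each array left out in turn. Figures were drawn with matplotlib 3.10.9.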

Additional observations from a re-analysis of the deposited data

Results flagged for a closer look

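In 36 sets of 6 arrays (9 genes by 4 groups), 2 arrays lay further from the rest of their group than Dixon's limit for 6 values, where chance alone flags about 1 in 20. Got2 on overloaded wildtype replicate 3 was at 12.34, with the nearest array at 12.80, and that array is the one that stood apart across genes. Bcat2 on untreated Mstn-/- replicate 2 was at 10.14, with the nearest array at 9.96, and the Bcat2 calls were the same without it.

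The overload response differed between Mstn-/- and wildtype muscle for 4 genes by the interaction term of the limma fit. The log2 difference was 1.05 for Gpt2, 0.49 for Bckdhb, 0.43 for Got1 and 0.38 for Bckdha. Of these, Gpt2 alone was also called relative to the fibre structure genes and relative to the mitochondrial energy genes.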

How the results depend on the processing

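As deposited, the counts of called genes among the 9 were 9 and 8 for overload in wildtype and Mstn-/-. They were 3 and 5 for genotype in untreated and overloaded muscle, and 4 for the difference in response. These counts moved by over 1.5 times in 2 cases. With array weights 5 were called in untreated muscle, where 4139 of all 14499 tested genes were called, in place of 3091. Relative to the mitochondrial energy genes 8 were called in overloaded muscle, where 11722 of all 14499 were called, in place of 5293. Most tested genes were thus called on that scale, so the 8 is not particular to the 9 genes. No sign of pairing by replicate number was seen, though these values cannot exclude it. Over 36 same-number pairs the mean correlation of deviations was 0.016, from -0.41 to 0.36, and 4 of 24 arrays correlated best with their own number. With the replicate block the counts were 9, 8, 3, 5 and 4, and no call of the 45 member results changed. Leaving out each array in turn gave 9 and 8 for overload in wildtype and Mstn-/- each time, 2 to 4 and 5 to 6 for genotype in untreated and overloaded muscle, and 4 to 5 for the difference in response. The fit of only the groups of a comparison gives no value for the difference in response.

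Among values called on the deposited or the relative scale, signs turned relative to the fibre structure genes for Got2 (0.06) and Glud1 (0.19) under overload in wildtype and for Gpt (-0.21) and Got2 (-0.15) between overloaded genotypes. Relative to the mitochondrial energy genes they turned for Gpt (0.14), Got2 (0.34) and Glud1 (0.48) under overload in wildtype, for Gpt (-0.33), Got1 (-0.17), Got2 (-0.27) and Bckdha (-0.086) between overloaded genotypes, and for Gpt (-0.36), Got1 (-0.056), Got2 (-0.25) and Bckdha (-0.10) in the difference in response. Signs also turned for 4 values on the fibre and 3 on the mitochondrial scale that were called on neither. The cause was not tested. These scales subtract lists that themselves moved: the calls over all genes became 10313 and 11722 between overloaded genotypes (5293 as deposited) and 7094 and 12300 for the difference in response (2516). Higher and lower calls are given next, on the fibre scale and then on the mitochondrial scale. In wildtype overload they were 10285 and 1546, and 12590 and 585, in place of 4396 and 5164. In Mstn-/- overload they were 4971 and 2226, and 4838 and 1483, in place of 3932 and 4857. Between untreated genotypes they were 1344 and 833, and 2486 and 259, in place of 1616 and 1475. Between overloaded genotypes they were 829 and 9484, and 391 and 11331, in place of 2540 and 2753. For the difference in response they were 449 and 6645, and 144 and 12156, in place of 1293 and 1223.
Among the other alternatives, a further quantile normalization lost Glud1 under overload in wildtype (-0.11, limma adjusted p = 0.093) and Got1 in untreated muscle (limma adjusted p = 0.055). It gained Glud1 in untreated muscle (-0.18, limma adjusted p = 0.021), as did the stricter filter and array weights. Array weights also gained Got2 there (-0.16, limma adjusted p = 0.026). Calls of differences near 0.2 on the log2 scale could thus change with the processing.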

Other observations

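Some list genes differed between the genotypes in ways the comparisons above did not describe. Among amino acid transporters the smallest adjusted p-values for a difference in the overload response were those of Slc7a2, a carrier of arginine and lysine (-0.64 ± 0.094, log2, SE; limma adjusted p = 4.1e-05), and Slc38a2, a carrier of small neutral amino acids (-0.48 ± 0.079; limma adjusted p = 0.00016), both with the lower response in Mstn-/- muscle. Slc7a2 was 1.84-fold higher in untreated Mstn-/- than wildtype muscle (limma adjusted p = 5.2e-10). Of 17 transporters 6 had a lower and 1 a higher response in Mstn-/- muscle, or 4 and 1 without overloaded wildtype replicate 3. With all arrays the shares of all genes were 8.44% lower and 8.92% higher.

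Among the regulators, Ppargc1b, a coactivator related to Ppargc1a, was lower in untreated Mstn-/- than wildtype muscle (log2 difference -0.59 ± 0.074, SE; limma adjusted p = 2e-06). Mlxipl, the carbohydrate-responsive transcription factor ChREBP, was 1.48-fold lower there (limma adjusted p = 3.8e-05). In the ATF4 list Chac1 was 2.12-fold higher in overloaded Mstn-/- than in overloaded wildtype muscle (limma adjusted p = 2e-05), and Aldh18a1 was 1.42-fold lower (limma adjusted p = 6e-06).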
